A study of Homo sapiens with 9 samples.

Results

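Staufen proteins and the nonsense-mediated decay (NMD) factors are the proteins that single out messenger RNAs for destruction in the cytoplasm, and the transcripts of 9 of their genes were followed here. The members were listed by name and by what they are known to do, although earlier results of these data were known when the list was made. They are the double-stranded RNA-binding proteins STAU1 and STAU2, the core NMD factors UPF1, UPF2, UPF3A and UPF3B, the kinase SMG1, and SMG5 and SMG6. All 9 were found among the 15354 genes of the deposited table, and all 9 were among the 13893 genes that passed the filter of at least 1 CPM (1 read per 1000000 reads of the library) in at least 3 of 9 libraries. The RNA came from HCT116 cells, a long-established line from a human colorectal carcinoma, reverse transfected with siRNAs. The sample labels give the siRNA concentration as 25 nM, and the study's general methods give a different one. Control libraries received a non-targeting siRNA, and the other groups received siRNA A or siRNA B, both directed at the long non-coding RNA SNHG5, with 3 replicate libraries in each group. No other treatment or genotype separated the groups, and all of them rest on this single cell line. The study made these libraries to look for processes that change when SNHG5 is depleted. In separate experiments, among them STAU1 knock-down and RNA immunoprecipitation, it examined STAU1 as a protein that could act on transcripts bound by SNHG5.

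In NMD, the helicase UPF1 joins ribosomes that stop too early, and it is activated by phosphorylation through the kinase SMG1. UPF2 and UPF3B tie UPF1 to the exon junction complex that splicing leaves on the RNA. Phosphorylated UPF1 then calls in SMG6, an endonuclease, and SMG5, an adaptor that helps to bring in deadenylation and decapping. Staufen-mediated decay (SMD) borrows UPF1: STAU1 binds double-stranded stretches of an RNA and recruits the helicase there without an exon junction complex. Several NMD factor transcripts, among them those of UPF1, UPF2, UPF3B, SMG1, SMG5 and SMG6, are known to be NMD substrates themselves.

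The library totals ran from 15566530 to 23277549 reads, and each of the 9 members was counted with between 104 and 5419 reads in a library. Reads counted for SNHG5, the targeted RNA, were higher and not lower in the libraries labelled as its knock-downs. In the annotation this gene has 12604 bases of exon and overlaps 2 others on its strand. Counts per gene cannot tell its isoforms apart. Its scaled level was 58.8 to 71.7 CPM in siRNA A libraries and 46.0 to 50.2 CPM in siRNA B libraries, above the 22.1 to 31.3 CPM of control, so every direction below is that of the library labels. All 7 epithelial markers of the line were detected, with a summed level of 2095 to 2183 CPM in control libraries, 2805 to 3441 CPM in those of siRNA A and 2393 to 2452 CPM in those of siRNA B. Of 11 markers of fibroblasts, endothelium, leukocytes and neurons, 4 had a matched row, and their sum was 20.9 to 21.8, 10.7 to 14.2 and 10.6 to 12.0 CPM in the same order. COL1A1 gave most of it, PDGFRB and CD14 stayed under 0.6 CPM, and the part of these markers in the results was not tested.

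The levels below are CPM after TMM scaling of the libraries (by the trimmed mean of their log ratios), and log2 fold changes are of log2(scaled CPM + 1), with limma's adjusted p-value over all 13893 genes. A gene was called at an adjusted p under 0.05. Calls were frequent across the transcriptome. With siRNA A against control 51.5% of all tested genes were called, 24.0% as higher and 27.5% as lower, and with siRNA B 33.9% were called, 15.5% as higher and 18.4% as lower. Among the members, 4 of 9 were called with siRNA A (44.4%) and 5 of 9 with siRNA B (55.6%). Libraries of a siRNA group did not overlap with control for 4 members with siRNA A, against 59.4% of all genes, and for 6 members with siRNA B, against 47.5%. Being called with siRNA A was thus about as frequent among the members as elsewhere, and the counts by themselves say little about these genes. Both comparisons share the 3 control libraries.

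STAU1 and UPF1 were the members that changed in one direction with both siRNAs, STAU1 upwards and UPF1 downwards. That is 2 of 9 members (22.2%), against 21.9% of all tested genes. STAU1 was at 182, 195 and 198 TMM-scaled CPM in the control libraries, at 266, 266 and 282 in those of siRNA A, and at 226, 254 and 237 in those of siRNA B. Every siRNA library lay above every control library. The mean rose from 192 ± 8.46 (SD, n = 3) to 271 ± 9.17 with siRNA A, or by 0.50 ± 0.091 (SE) on the log2 scale (limma adjusted p = 0.000803). The mean of the siRNA B libraries was 239 ± 14.2, higher by 0.32 ± 0.091 (limma adjusted p = 0.0184). STAU1 was 0.18 higher with siRNA A than with siRNA B, with a 95% interval from -0.02 to 0.38 (limma adjusted p = 0.136). The increase of STAU1 rested on the scaling: with library totals alone the log2 fold change was 0.13 (limma adjusted p = 0.284) for siRNA A and 0.11 (limma adjusted p = 0.434) for siRNA B. Without control library 1, the call with siRNA B was lost (0.28, limma adjusted p = 0.0641). In bulk RNA, a change in the make-up of the cells and a change in RNA per cell cannot be told apart.

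UPF1 was at 127, 140 and 144 TMM-scaled CPM in control, at 99.1, 105 and 104 with siRNA A and at 82.3, 78.2 and 78.2 with siRNA B. The 3 groups did not overlap, and siRNA B gave the lowest values. From a control mean of 137 ± 9.30 (SD, n = 3), UPF1 fell to 103 ± 3.17 with siRNA A (log2 fold change -0.41 ± 0.090 SE, limma adjusted p = 0.00265), and its mean was 79.6 ± 2.40 in the siRNA B libraries (-0.78 ± 0.090, limma adjusted p = 8.79e-05). The siRNAs differed, with UPF1 higher by 0.37 with siRNA A (95% interval 0.17 to 0.56, limma adjusted p = 0.00816). UPF1 transcripts are rich in G and C, at 60.4%, above 86.8% of tested genes, and the median log2 fold change of all genes ran from 0.15 in the lowest of 4 equal GC bins to -0.23 in the highest with siRNA A. After a correction for that trend the UPF1 change with siRNA A was -0.18 and no longer passed (limma adjusted p = 0.134), whereas with siRNA B it remained called at -0.62.

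The stretches just before the annotated starts of these members, the pair called in one direction with both siRNAs, are shown because transcription from them sets one part of a transcript's level. RefSeq (GRCh38.p14, a later build than the gene coordinates below) gave 250 bases for each of 2 STAU1 starts, at chr20:49219296-49219545 and chr20:49188335-49188584 on the minus strand, and for 1 UPF1 start, at chr19:18831709-18831958 on the plus strand. Capitals mark the GC box, GGGCGG or its reverse complement.
STAU1, distal start: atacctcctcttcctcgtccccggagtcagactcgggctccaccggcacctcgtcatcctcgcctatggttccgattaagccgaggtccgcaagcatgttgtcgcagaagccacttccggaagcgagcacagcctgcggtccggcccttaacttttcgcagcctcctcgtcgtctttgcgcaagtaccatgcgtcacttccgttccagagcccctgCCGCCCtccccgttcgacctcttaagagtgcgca
STAU1, proximal start: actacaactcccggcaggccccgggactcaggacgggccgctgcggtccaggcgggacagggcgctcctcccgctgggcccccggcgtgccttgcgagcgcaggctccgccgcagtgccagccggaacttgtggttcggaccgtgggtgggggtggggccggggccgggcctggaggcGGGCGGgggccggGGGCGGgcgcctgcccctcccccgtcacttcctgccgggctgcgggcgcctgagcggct
UPF1: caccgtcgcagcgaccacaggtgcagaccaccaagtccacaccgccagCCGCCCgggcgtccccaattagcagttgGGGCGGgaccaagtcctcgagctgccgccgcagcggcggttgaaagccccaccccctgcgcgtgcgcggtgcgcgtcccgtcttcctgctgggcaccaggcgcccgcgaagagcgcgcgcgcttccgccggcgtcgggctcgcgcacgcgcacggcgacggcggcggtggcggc
The 3 windows held 1, 2 and 2 GC boxes. A GC box was present in 42.6% of 35116 windows of the same length. CCAAT on either strand was found once in the UPF1 window and in neither STAU1 window, against 32.0% of all windows, and TATAAA was in none of the 3, against 10.7%. The GC share of the windows was 61.2%, 79.2% and 75.6%, with a median of 58.0% over all windows. These matches are letters only, and no overlap with another of the searched motifs occurred in the windows shown. The distal STAU1 window lies well upstream of the proximal one. Which of the 2 STAU1 starts is used in these cells was not tested, nor whether the distal window holds part of a neighbouring gene.

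**Figure D1:**
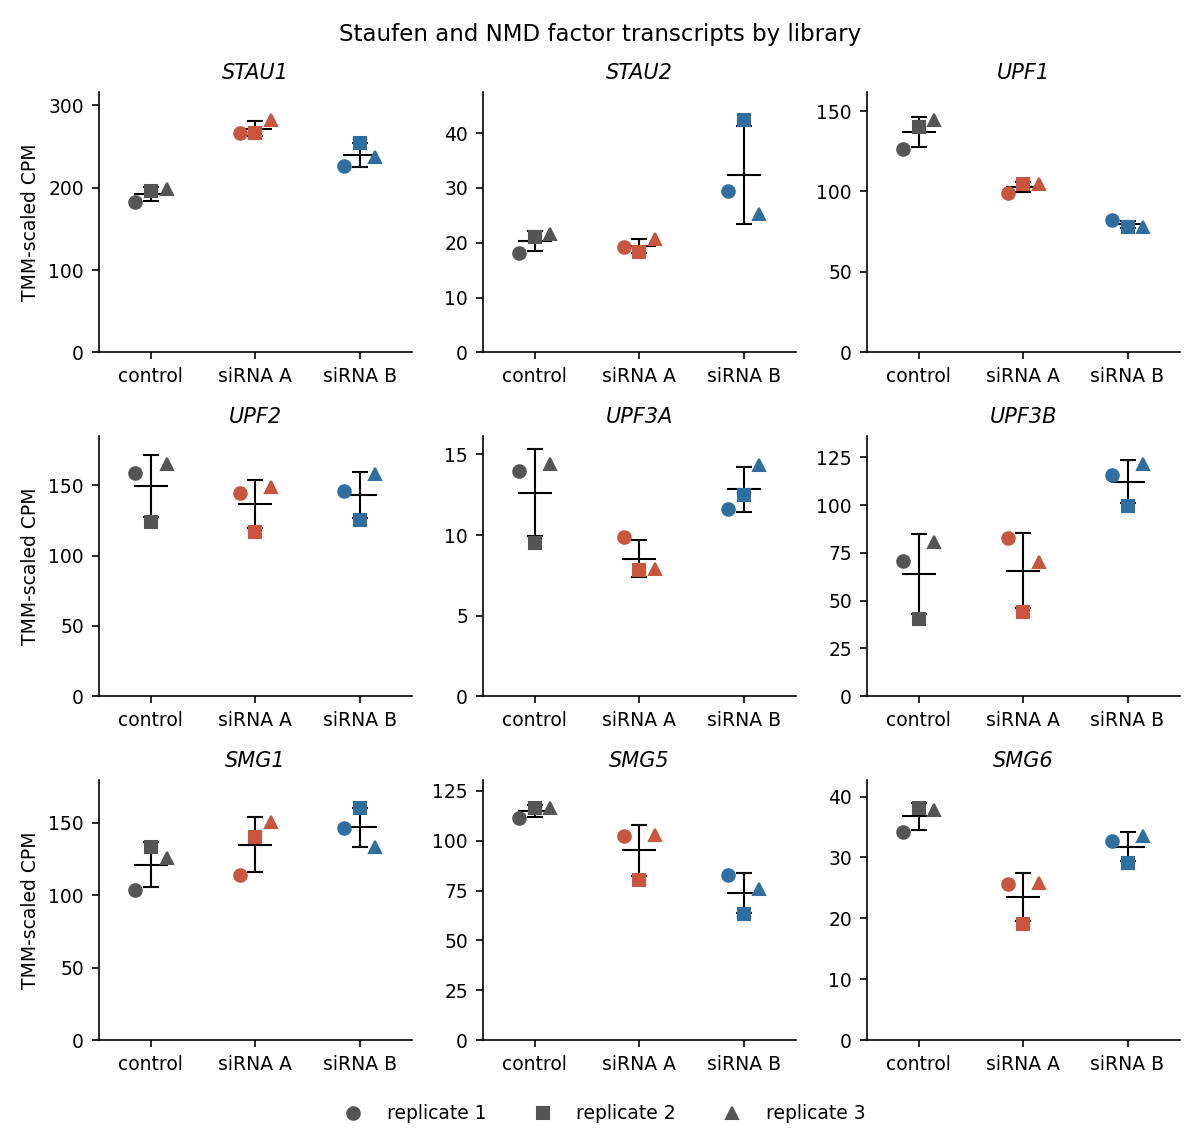
Level of each member in TMM-scaled CPM (vertical axes from 0) in the 9 libraries, by group on the horizontal axis; symbols give the replicate number, and the bars give the mean and SD of 3 libraries. STAU1 was higher and UPF1 lower in every siRNA library than in every control library.

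STAU2, the paralogue of STAU1 that is best known from transport granules of neurons, changed with siRNA B only among the comparisons with control. It was at 18.2, 21.0 and 21.6 TMM-scaled CPM in control, at 19.3, 18.3 and 20.8 with siRNA A and at 29.5, 42.4 and 25.2 with siRNA B. The siRNA B libraries lay above both other groups but spread widely, with library 2 the highest. The mean rose from 20.3 ± 1.83 to 32.3 ± 8.97 with siRNA B (log2 fold change 0.62, SE 0.165, limma adjusted p = 0.0132), and the value with siRNA A was -0.06 (limma adjusted p = 0.792). The siRNAs differed by -0.67, siRNA A minus siRNA B (95% interval -1.03 to -0.32, limma adjusted p = 0.00777). Without siRNA B library 2 both values were smaller and still called, at 0.41 against control (limma adjusted p = 0.0286) and -0.47 between the siRNAs (limma adjusted p = 0.0142). With library totals alone the siRNA B value was 0.42 (limma adjusted p = 0.0631) and the siRNA A value -0.41 (limma adjusted p = 0.0479). STAU2 lies with other genes on the same and on the other strand, STAU2-AS1 among them, and strand use in counting was not given in the sources used here.

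UPF2, the bridge between UPF1 and the UPF3 proteins, was not called in any comparison. It was at 159, 124 and 165 TMM-scaled CPM in control, at 144, 117 and 149 with siRNA A and at 146, 125 and 158 with siRNA B. The groups overlapped throughout, and library 2 was the lowest of each group. The log2 fold change was -0.12 with siRNA A (95% interval -0.43 to 0.18) and -0.06 with siRNA B (-0.36 to 0.25), so a change of the size seen for STAU1 with siRNA A was outside both intervals, while a fall of the size seen for UPF1 with siRNA A was inside the first.

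The UPF3 paralogues moved with different siRNAs. UPF3A, the weaker activator of NMD, was at 13.9, 9.52 and 14.4 TMM-scaled CPM in control, at 9.86, 7.85 and 7.88 with siRNA A and at 11.6, 12.5 and 14.4 with siRNA B. Control library 2 reached down into the siRNA A range. UPF3A fell by 0.50 ± 0.163 (SE) on the log2 scale in the siRNA A libraries (limma adjusted p = 0.0228), and its value with siRNA B was 0.04 (limma adjusted p = 0.883). The siRNAs differed by -0.54, siRNA A minus siRNA B (95% interval -0.89 to -0.18, limma adjusted p = 0.0226). UPF3A had the fewest reads of all members, 104 to 350 a library, and the call against control was lost without control library 1 (-0.42, limma adjusted p = 0.0768), control library 3 (-0.40, limma adjusted p = 0.0972), siRNA A library 2 (-0.45, limma adjusted p = 0.0679) or siRNA A library 3 (-0.45, limma adjusted p = 0.0737).

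UPF3B, the X-linked paralogue that binds the exon junction complex most strongly, was at 70.8, 40.5 and 80.9 TMM-scaled CPM in control, at 82.8, 44.3 and 70.2 with siRNA A and at 116, 99.8 and 122 with siRNA B. All siRNA B libraries lay above the other 6, and library 2 was the lowest in each group. The mean rose from 64.1 ± 21.1 to 112 ± 11.3 with siRNA B (log2 fold change 0.85, SE 0.253, limma adjusted p = 0.0218), the largest increase among the members. With siRNA A the value was 0.05, with a 95% interval from -0.50 to 0.60 (limma adjusted p = 0.883). The siRNAs differed by -0.80, siRNA A minus siRNA B (95% interval -1.36 to -0.25, limma adjusted p = 0.0264). The call did not hold without control library 2 (0.56, limma adjusted p = 0.0840), siRNA B library 1 (0.83, limma adjusted p = 0.0613) or siRNA B library 3 (0.79, limma adjusted p = 0.0567), and with library totals alone (0.65, limma adjusted p = 0.0550).

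SMG1, the kinase that phosphorylates UPF1, was the other member called in no comparison. It was at 104, 134 and 126 TMM-scaled CPM in control, at 114, 140 and 150 with siRNA A and at 146, 160 and 134 with siRNA B. The ranges overlapped in each comparison. The log2 fold change was 0.15 with siRNA A (95% interval -0.14 to 0.44, limma adjusted p = 0.359) and 0.28 with siRNA B (-0.01 to 0.57, limma adjusted p = 0.122). The annotation holds 7 pseudogene copies of SMG1 on chromosome 16, for which no row was found, so that the SMG1 level is uncertain. Copies of UPF3A (UPF3AP1, UPF3AP2 and UPF3AP3) and of STAU2 (STAU2P1) also had no row, and the same limit holds for those members.

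SMG5 and SMG6 act side by side on phosphorylated UPF1, and each was called as lower with a different siRNA. SMG5 was at 111, 117 and 116 TMM-scaled CPM in control, at 103, 80.3 and 103 with siRNA A and at 82.7, 63.0 and 75.6 with siRNA B. Neither siRNA group reached the control range. With siRNA B the mean fell from 115 ± 3.09 to 73.8 ± 9.98 (log2 fold change -0.64, SE 0.126, limma adjusted p = 0.00247). With siRNA A the log2 fold change was -0.28 (limma adjusted p = 0.0854). With the replicate number as a block, that value was called (limma adjusted p = 0.0396), as it was at -0.64 under scaling by library totals (limma adjusted p = 0.0026). After the GC correction it was -0.086 and not called, without the block (limma adjusted p = 0.57) or with it (limma adjusted p = 0.483). The siRNAs differed by 0.36, siRNA A minus siRNA B (95% interval 0.09 to 0.64, limma adjusted p = 0.0404). That difference lost its call with library totals alone (0.20, limma adjusted p = 0.304), in a fit of only the 2 groups compared (0.36, limma adjusted p = 0.0712) and on leaving out control library 2 or 3, siRNA A library 1 or 3, or siRNA B library 2 or 3, with values from 0.25 to 0.38 and adjusted p from 0.0528 to 0.129.

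SMG6, the NMD endonuclease, was at 34.2, 38.2 and 37.9 TMM-scaled CPM in control, at 25.6, 19.0 and 25.9 with siRNA A and at 32.7, 29.1 and 33.5 with siRNA B. The 3 groups did not overlap, with siRNA B between the others. From 36.8 ± 2.20, the mean fell to 23.5 ± 3.88 with siRNA A (log2 fold change -0.63, SE 0.129, limma adjusted p = 0.00165), and this call held under all 20 alternative settings, with values from -0.99 to -0.47. With siRNA B the mean was 31.8 ± 2.33 and the log2 fold change -0.21 (95% interval -0.49 to 0.08, limma adjusted p = 0.243). The siRNAs differed by -0.43, siRNA A minus siRNA B (95% interval -0.71 to -0.15, limma adjusted p = 0.0214). Without siRNA A library 2 this difference was -0.29 (limma adjusted p = 0.0737), without siRNA B library 1 it was -0.41 (limma adjusted p = 0.0681) and without siRNA B library 3 it was -0.39 (limma adjusted p = 0.0684). SMG6 overlaps 14 annotated genes, SRR and HIC1 among them.

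Set side by side, the siRNA groups differed in part of the 9 transcripts. Between siRNA A and siRNA B, 6 of 9 members were called (66.7%), against 37.1% of all tested genes. UPF1 and SMG5 were higher with siRNA A (17.8% of all genes were called in that direction), and STAU2, UPF3A, UPF3B and SMG6 were lower with siRNA A (19.3%). Over 20 alternative settings SMG5 lost this call in 8, SMG6, UPF3A and UPF3B in 3 each, UPF1 in 1 and STAU2 in none. The libraries of these groups did not overlap for 6 members, against 47.7% of all genes. These 6 are not the same as the called members: they include STAU1, which was not called, and not SMG5, whose libraries overlapped. The medians of the 9 log2 fold changes were -0.12 with siRNA A and 0.04 with siRNA B, beside -0.02 and 0.0030 over all tested genes.

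**Figure D2:**
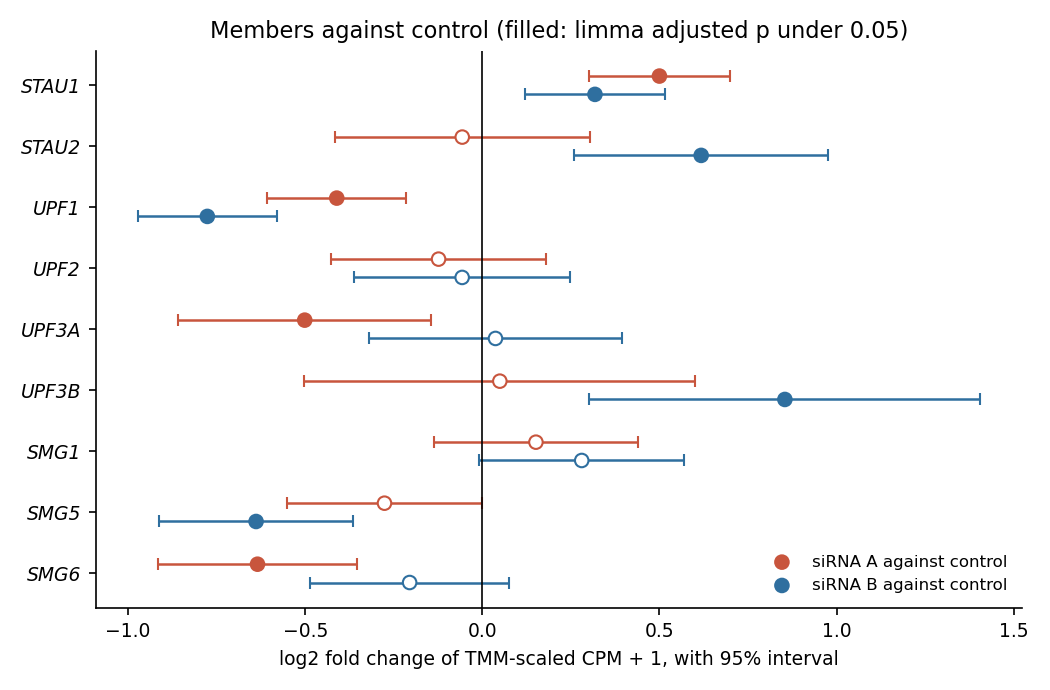
Log2 fold change of each member against control (horizontal axis, log2 of TMM-scaled CPM + 1) with siRNA A and siRNA B; bars give the 95% interval from the limma fit and filled points an adjusted p under 0.05. STAU1 and UPF1 have filled points on one side of 0 with both siRNAs, while STAU2, UPF3B and SMG5 are filled with siRNA B alone, and UPF3A and SMG6 with siRNA A alone.

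Ratios of 2 members within a library do not depend on how libraries are scaled, and a handful was formed after the values had been seen, so they are given with no test. STAU1 gave 1.44, 1.39 and 1.37 reads per UPF1 read in control, 2.69, 2.54 and 2.70 with siRNA A and 2.75, 3.26 and 3.03 with siRNA B. The groups were far apart, with means of 1.40 ± 0.0347 (SD, n = 3), 2.64 ± 0.0886 and 3.01 ± 0.254, and this ratio joins a gene that rose to a gene that fell. The UPF2 to UPF1 ratio was 0.883 to 1.25 in control, 1.11 to 1.45 with siRNA A and 1.6 to 2.02 with siRNA B, and only the siRNA B group stood clear of control. These ratios were not corrected for the GC trend. GC content was 46.7% for STAU1 and 40.3% for UPF2 beside 60.4% for UPF1, and its part in the ratios was not tested. STAU1 gave 9.14 to 10.0 reads per STAU2 read in control, 13.6 to 14.6 with siRNA A and 6.0 to 9.42 with siRNA B. The paralogue ratio thus went up in all siRNA A libraries, and overlapped with control in siRNA B. UPF3B gave 4.25 to 5.61 reads per UPF3A read in control, 5.64 to 8.90 with siRNA A and 7.98 to 9.94 with siRNA B, higher in both siRNA groups than in any control library. The SMG5 to SMG6 ratio was 3.05 to 3.25 in control, 3.97 to 4.22 with siRNA A and 2.16 to 2.53 with siRNA B, on opposite sides of control.

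**Figure D3:**
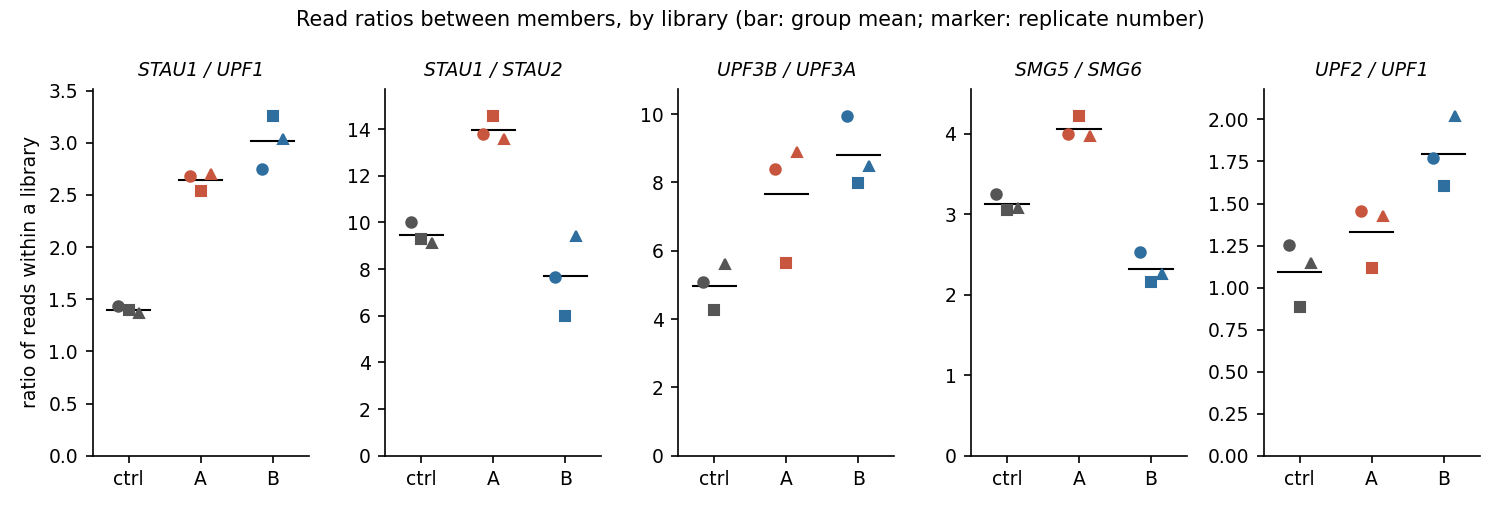
Ratio of the reads of 2 members within each library (vertical axes from 0) in control (ctrl), siRNA A (A) and siRNA B (B) libraries; symbols give the replicate number as circle 1, square 2 and triangle 3, and bars the group mean. The STAU1 to UPF1 ratio was 1.37 to 1.44 in control and at least 2.54 in every siRNA library.

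The choice of scaling mattered for directions. The TMM factors averaged 1.14 in control libraries, 0.885 in those of siRNA A and 0.989 in those of siRNA B, so that library totals alone lower log2 fold changes by 0.37 in the siRNA A comparison and by 0.21 in that of siRNA B. The median gene then stood at -0.34 and -0.18. With totals alone, 6 of 9 members were called with siRNA A, all as lower, and 3 with siRNA B, all as lower. These shares, 6 and 3 of 9, stand beside 56.1% and 36.6% of all tested genes called under that scaling, 47.0% and 29.7% as lower, so that the count with siRNA B was near the background. UPF1, UPF3A and SMG6 stayed called as lower with siRNA A, joined by STAU2, UPF2 and SMG5, while UPF1, SMG5 and SMG6 were the calls with siRNA B. STAU1 kept its sign but lost both calls. Relative to the median gene, STAU1 was higher and UPF1 lower. The choice between these scalings cannot test that, since each moves all genes of a library by nearly the same amount.

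**Figure D4:**
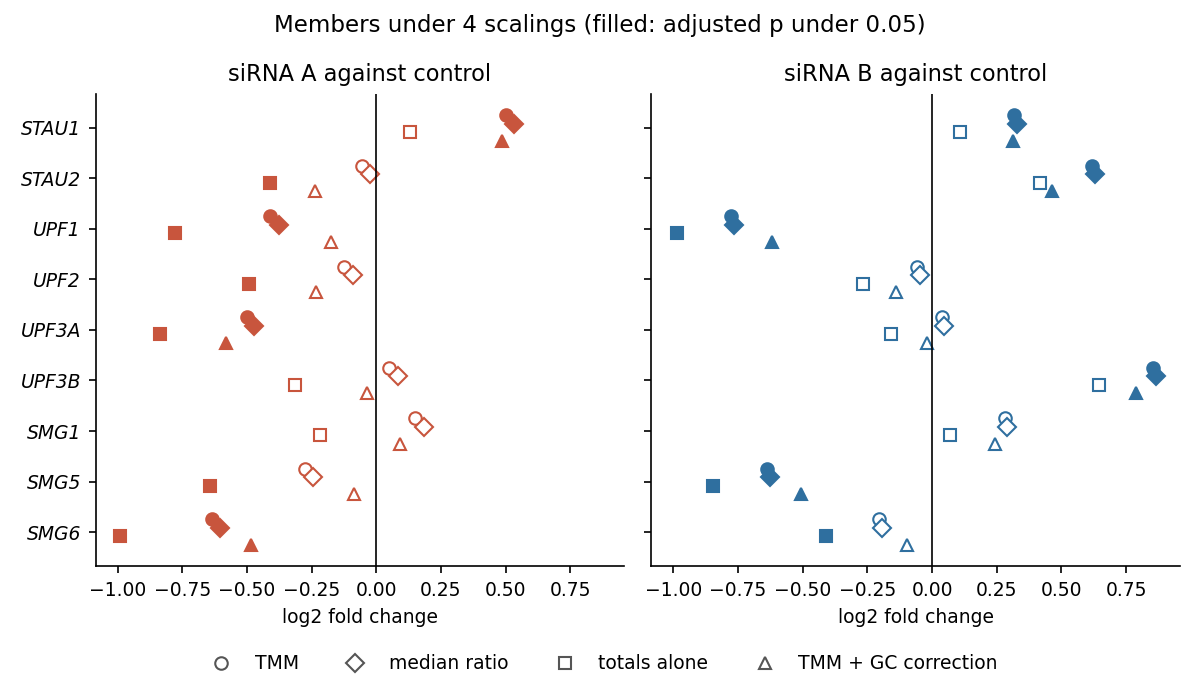
Log2 fold change of each member against control (horizontal axis) under TMM scaling, median-ratio size factors, library totals alone and TMM with a GC correction, for siRNA A and siRNA B; filled symbols mark an adjusted p under 0.05. Totals alone shift all members to lower values, and the GC correction draws UPF1 and SMG5 towards 0.

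Levels of different genes were compared per kilobase of annotated exon in the control libraries. STAU1 was the most abundant member with 46.8 ± 2.07 TMM-scaled CPM per kilobase (SD, n = 3). UPF2 (25.4 ± 3.77), UPF3B (25.3 ± 8.32) and SMG5 (21.6 ± 0.583) followed, and each of these overlapped with its neighbour in the order. UPF1 stood at 15.4 ± 1.04, SMG1 at 4.81 ± 0.617 and SMG6 at 3.48 ± 0.208, with no overlap between neighbours. STAU2 (2.26 ± 0.204) and UPF3A (2.19 ± 0.470) were lowest and overlapped. By the length of the longest transcript, STAU1 remained first at 52.5, UPF1 moved up to 25.7 beside SMG5 at 25.2, and the last places were UPF3A at 5.21 and STAU2 at 5.0. UPF3B (27.3) then stood above UPF2 (26.8), so the order within UPF2 and UPF3B, within SMG5 and UPF1, and within STAU2 and UPF3A turned with the length used, and the ranges of each of these pairs overlapped by the longest transcript.

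The genes lie apart from each other. On GRCh37, STAU1 (ENSG00000124214.15) is at chr20:47729876-47804904, STAU2 (ENSG00000040341.13) is at chr8:74332604-74659943 and UPF1 (ENSG00000005007.8) is at chr19:18942768-18979039. UPF2 (ENSG00000151461.14) is at chr10:11962021-12085169, UPF3A (ENSG00000169062.9) is at chr13:115047076-115071292 and UPF3B (ENSG00000125351.6) is at chrX:118967985-118986961. SMG1 (ENSG00000157106.12) is at chr16:18816182-18937730, SMG5 (ENSG00000198952.5) is at chr1:156219015-156252616 and SMG6 (ENSG00000070366.8) is at chr17:1963133-2207079. UPF1, UPF3A, UPF3B and SMG5 overlap no other annotated gene. UPF1, SMG5 and SMG6, the members with a fall in at least 1 comparison and the highest GC content (60.4%, 57.6% and 55.3%), stood above 71.9% to 86.8% of tested genes in GC, and UPF3A, which fell with siRNA A, was at 41.8%.

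The other genes of the decay routes were described by lists of known members, of which only matched and tested genes are counted, without a few genes not reported here. RNAs known as NMD targets were higher in nearly every case: 16 of 17 were called as higher with siRNA A and 13 of 17 with siRNA B, none as lower, beside 24.0% and 15.5% of all tested genes called as higher. Their median log2 fold change was 0.94 with siRNA A and 0.57 with siRNA B, beside -0.02 and 0.0030 over all genes. With library totals alone 13 and 9 were called as higher and none as lower, beside 9.05% and 6.9% of all genes called as higher. GADD45A did not pass with siRNA A, and GADD45B, SNHG15, SRSF2 and HNRNPL did not pass with siRNA B. The list holds RNAs of different kinds. Of 6 snoRNA host RNAs, the class to which SNHG5 belongs, 6 were higher with siRNA A and 5 with siRNA B. Of 7 mRNAs of the stress response and metabolism 6 were higher with each siRNA, and of 4 splicing regulators, whose NMD-sensitive isoforms cannot be told from the others in counts per gene, 4 and 2 were higher. Many of these mRNAs, ATF4, ATF3 and DDIT3 among them, are also induced by stress, and transcription and decay cannot be told apart in steady-state RNA.

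Among the NMD targets, ATF3, a stress-induced transcription factor, was at 27.2, 13.4 and 22.4 TMM-scaled CPM in control, at 95.9, 203 and 92.1 with siRNA A and at 61.0, 48.1 and 49.5 with siRNA B. All siRNA libraries lay above control, with siRNA A library 2 far above the rest. Its log2 fold change was 2.53 with siRNA A (limma adjusted p = 4.27e-05) and 1.34 with siRNA B (limma adjusted p = 0.00451). DDIT3, which encodes the transcription factor CHOP, was at 36.1, 16.9 and 28.9 in control, at 61.2, 47.3 and 45.6 with siRNA A and at 91.1, 67.3 and 83.2 with siRNA B, again with no overlap with control. It rose by 0.94 in siRNA A libraries (limma adjusted p = 0.0048) and by 1.58 in those of siRNA B (limma adjusted p = 0.000355). The snoRNA host ZFAS1 was at 99.8, 59.2 and 65.4 in control, at 193, 170 and 135 with siRNA A and at 196, 147 and 199 with siRNA B. It rose by 1.16 and 1.28 (limma adjusted p = 0.000507 and 0.000527), and ZFAS1 overlaps 5 other annotated genes, snoRNA genes among them.

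All 5 translation termination genes were called as higher with both siRNAs, with medians of 0.70 and 0.43, beside the same 24.0% and 15.5% of all genes. With siRNA B the count was 3 of 5 without control library 1 and also without siRNA B library 3. PABPC1, the cytoplasmic poly(A)-binding protein that opposes NMD, had a mean of 4362 ± 636 TMM-scaled CPM in siRNA A libraries and 4429 ± 934 in siRNA B libraries against 2590 ± 519 in control, log2 fold changes of 0.76 and 0.77 (limma adjusted p = 0.0066 and 0.00994). Its paralogue PABPC4 rose by 0.70 and 0.64 (limma adjusted p = 0.00186 and 0.00554). GSPT1, the release factor eRF3a that UPF1 contacts at a terminating ribosome, was at 223, 232 and 239 in control, at 389, 383 and 397 with siRNA A and at 300, 330 and 310 with siRNA B, and rose by 0.75 and 0.44 (limma adjusted p = 4.94e-05 and 0.00301). The calls also depended on the scaling, since with library totals alone 1 of the 5 was called with siRNA A and 1 with siRNA B, both as higher. Of all genes, 9.05% and 6.9% were called as higher under that scaling.

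The remaining protein factors were mixed, and paired values below are for siRNA A first and siRNA B second. The shares of all genes called as higher and lower are those given above, 24.0% and 27.5% with siRNA A and 15.5% and 18.4% with siRNA B. With library totals alone these shares were 9.05% and 47.0% with siRNA A and 6.9% and 29.7% with siRNA B. Of the 7 exon junction complex genes tested, 4 were higher with siRNA A and 2 with siRNA B, and none was lower. MAGOHB, a core subunit, rose by 0.60 and 0.64 (limma adjusted p = 0.000755 and 0.00101), and RNPS1, a peripheral one, by 0.60 and 0.29 (limma adjusted p = 0.000403 and 0.0419). Scaled by totals alone, 1 gene of this list was higher and 1 lower with each siRNA, and RNPS1 passed with neither (limma adjusted p = 0.0698 and 0.601). The RNPS1 call with siRNA B was also lost on leaving out any 1 control or siRNA B library. Of 10 other NMD factors, 2 were higher and 1 lower with siRNA A, and 1 was higher with siRNA B, so most did not pass. None was called with both siRNAs. By library totals, 2 were higher and 5 lower with siRNA A, and 1 was higher and 1 lower with siRNA B. Of 13 decapping and exonuclease genes, 4 were higher and 2 lower with siRNA A, and 1 was higher and 2 lower with siRNA B. SKIC2, the helicase that feeds RNA to the cytoplasmic exosome, fell by 0.35 and 0.47 (limma adjusted p = 0.0345 and 0.0141) on the log2 scale and was the gene of that list called with both. SKIC2 lost its call with siRNA A after the GC correction (-0.17, limma adjusted p = 0.298), as it did with siRNA B (-0.34, limma adjusted p = 0.0672). With siRNA A the call was also lost under median-ratio size factors (-0.32, limma adjusted p = 0.0565). It was lost too without control library 1, 2 or 3, or siRNA A library 1 or 3. With siRNA B it was lost without control library 2, or siRNA B library 1 or 3. Scaled by totals alone, none of these 13 genes was higher, and 6 were lower with siRNA A and 5 with siRNA B. The count of lower genes with siRNA A was near the share of all genes under that scaling. Without siRNA A library 2, 2 of the 13 in place of 4 were higher with that siRNA.

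RNAs known as SMD targets did not move as a block. Of the 4 tested, 2 were higher and 1 lower with siRNA A, and 2 were higher and 2 lower with siRNA B. JUN, a component of the transcription factor AP-1, rose by 0.99 and 0.90 (limma adjusted p = 0.00966 and 0.0243). JUN passed with neither siRNA when scaled by library totals alone, and over the 20 alternatives the higher calls in this list numbered 1 to 2 with siRNA A and 0 to 2 with siRNA B. Without control library 2 the JUN value with siRNA B was 0.54 (limma adjusted p = 0.0763). ARF1, a small GTPase of vesicle budding, and KLF2, a zinc-finger transcription factor, changed in opposite directions with the siRNAs. KLF2 was at 25.1, 15.2 and 27.8 TMM-scaled CPM in control, at 14.0, 13.7 and 11.6 with siRNA A and at 32.8, 37.2 and 35.9 with siRNA B, so the groups did not overlap. Its log2 fold change was -0.71 and 0.66 (limma adjusted p = 0.00753 and 0.0172), and that of ARF1 was 0.67 and -0.58 (limma adjusted p = 0.000265 and 0.00135). KLF2 lost its call with siRNA A after the GC correction (-0.46, limma adjusted p = 0.0607). Its call with siRNA B was lost by library totals (0.46, limma adjusted p = 0.05005) and without the libraries numbered 2 (0.37, limma adjusted p = 0.0635). SOWAHC was called as lower with siRNA B (-0.47) and not with siRNA A (0.12).

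Other double-stranded RNA-binding proteins went both ways: of 13 tested, 5 were higher and 4 lower with siRNA A, and 4 were higher and 2 lower with siRNA B, against the same shares of all genes. When library totals were used instead, 2 were higher and 7 lower with siRNA A, and none was higher and 4 were lower with siRNA B. Of all genes, 9.05% were higher and 47.0% lower with siRNA A under that scaling, and 6.9% and 29.7% with siRNA B. DHX9, an RNA helicase, rose by 0.97 and 0.44 (limma adjusted p = 5.67e-05 and 0.0128), and SON, a splicing cofactor, by 0.78 and 0.38 (limma adjusted p = 6.48e-05 and 0.00948), and with library totals alone both kept the call with siRNA A and lost that with siRNA B (limma adjusted p = 0.158 for DHX9 and 0.238 for SON). IFIH1, the cytoplasmic double-stranded RNA sensor MDA5, was at 6.06, 6.95 and 5.86 TMM-scaled CPM in control, at 4.11, 3.62 and 3.49 with siRNA A and at 2.37, 2.38 and 3.90 with siRNA B. It fell by 0.62 and 0.93 (limma adjusted p = 0.00736 and 0.00119) on the log2 scale, from a low level.

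**Figure D5:**
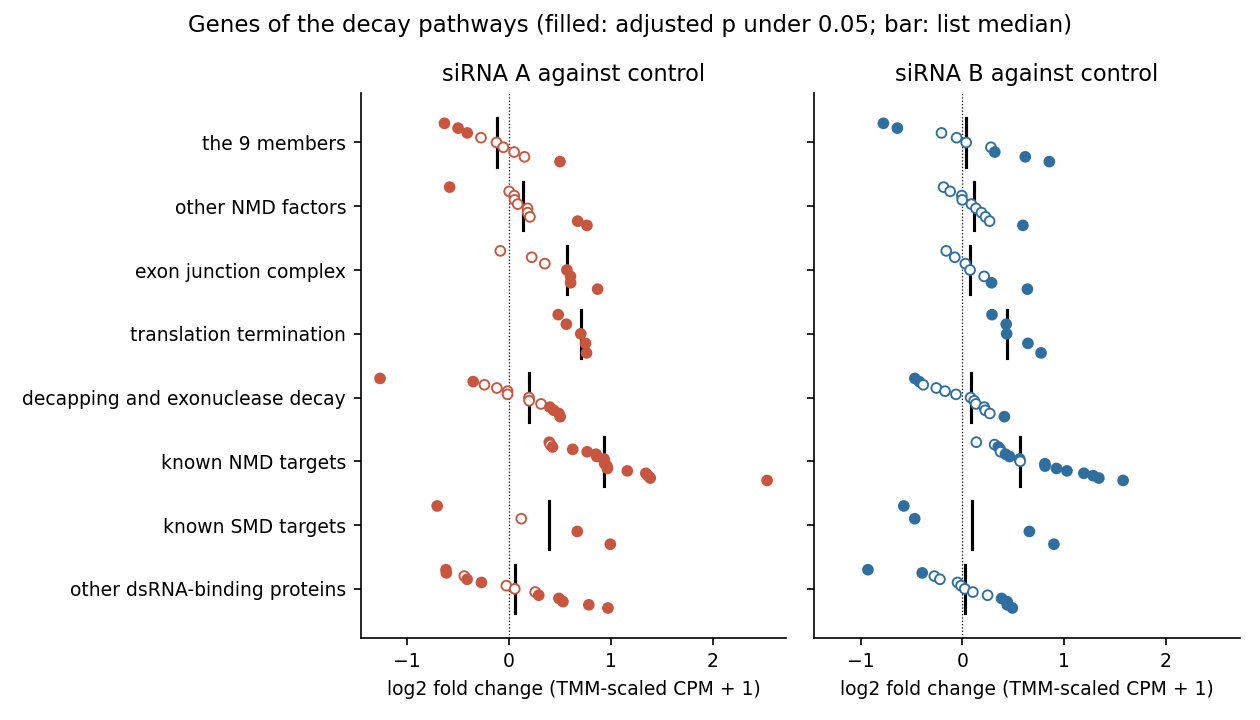
Log2 fold change against control (horizontal axis, log2 of TMM-scaled CPM + 1) of each tested gene in the 9 members and 7 lists, for siRNA A and siRNA B; filled points mark an adjusted p under 0.05 and the vertical bar the median of the list. The NMD targets and the translation termination genes lie to the right of 0 with both siRNAs, while the members spread on both sides.

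The genes whose pattern over the 9 libraries was most like that of STAU1, by the root mean square difference of centred log2 values, were SNX2 (0.0504), POGZ (0.0546) and ECD (0.0573), where the median over all genes was 0.342. Those nearest to UPF1 were ATG16L1 (0.0504), TRAFD1 (0.0533) and WLS (0.0678), with a median of 0.422. With siRNA A and siRNA B the log2 fold changes of SNX2 were 0.56 and 0.34, close to those of STAU1, and those of ATG16L1 were -0.44 and -0.83, close to those of UPF1. Such closeness follows from the choice, since the neighbours were picked for likeness over these same libraries. None of these 6 neighbours belongs to the lists above.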

How the data were processed

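Poly(A) RNA of 9 HCT116 libraries was sequenced, and the authors deposited 1 table of CPM, in which gene reads are given per 1000000 reads of the library total. The submitters' processing notes name TopHat2, HTSeq and the GRCh37 (hg19) build; their settings, versions and strand use were not given in the sources used here. Every CPM value was a whole number of reads within a tolerance of 0.01 (100% of values), so library totals could be recovered, and the rows held over 99% of them. Totals limit precision at 3 reads to 0.129 to 0.193 CPM; reads carry no molecular identifiers, so this covers counting error only.

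Gene identifiers were matched without their version to GENCODE on GRCh37 (14871 of 15354). Libraries were scaled by TMM, and limma with a variance trend was fitted to log2(CPM + 1) over all 13893 genes with at least 1 CPM in 3 libraries, with 1 mean per group. The Benjamini-Hochberg adjustment ran over all tested genes, with a threshold of 0.05. The study's methods call the replicates biological, and the sources do not say how they were separated, so p-values measure the spread between these libraries. Libraries of a group differed by more than sampling noise and were kept apart. The deviations of same-numbered control and siRNA A libraries correlated at 0.65, 0.41 and 0.13, which was read as pairing. The main fit used no pairs, and the replicate block was an alternative only. The reading of pairs comes from the data alone, and the other comparisons were not read in that way.

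Alternatives were library totals alone, median-ratio size factors, a pseudocount of 0.1 CPM, no filter, the edgeR quasi-likelihood test and DESeq2 on recovered reads, only the groups compared, a replicate block, a correction for GC content alone and with the block, and leaving out each library. A fit without the 3 libraries numbered 2 and the longest-transcript length were chosen after seeing the data. Genes named beyond the members were, per list, up to 3 called with both siRNAs in one direction, all called in opposite directions, and the 3 nearest patterns to STAU1 and UPF1; SOWAHC and genes that missed a call were named after their values were seen. The members and lists were chosen with earlier results of these data known. RBM8A, DCP1A, IL7R, PAX3 and DHX58 had no matched row and were not analysed here. Some genes of these lists, none of them from the NMD target or translation termination lists, are not reported here and were left out of the list counts. Promoter windows came from RefSeq, with windows for 8 of the 9 members. The limma fit was tested on simulated counts with few changed genes, in siRNA A only and balanced up and down. Changes as widespread as those called here were not simulated, so that test does not bear on the choice of scaling. Tools were limma 3.58.1, DESeq2 1.42.0 and edgeR 4.0.16 in R 4.3.3, and pandas 2.3.3 and matplotlib 3.10.9 in Python 3.11.15.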

Additional observations from a re-analysis of the deposited data

Results flagged for a closer look

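For 6 of the 9 members the effects of the siRNAs against one control differed by the limma test of siRNA A against siRNA B itself, and that difference drew attention to them. The log2 difference, siRNA A minus siRNA B, was -0.67 for STAU2, -0.54 for UPF3A, -0.80 for UPF3B and -0.43 for SMG6, all lower with siRNA A. It was 0.37 for UPF1 and 0.36 for SMG5, both higher with siRNA A. UPF1 was called as lower with both siRNAs, so that for it the difference is one of size. STAU2 was called in all 20 alternative settings. UPF1 lost its call with library totals alone (0.21, limma adjusted p = 0.143). UPF3A lost it without siRNA A library 2 (-0.49, limma adjusted p = 0.0683), siRNA A library 3 (-0.49, limma adjusted p = 0.0728) or siRNA B library 3 (-0.46, limma adjusted p = 0.0794). UPF3B lost it without siRNA A library 2 (-0.55, limma adjusted p = 0.105), siRNA B library 1 (-0.78, limma adjusted p = 0.0712) or siRNA B library 3 (-0.74, limma adjusted p = 0.0678).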

How the results depend on the processing

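Over the 27 member results and 20 alternatives, 482 values kept their direction and their side of the threshold, 33 lost a call, 7 gained one and 18 changed sign. With library totals alone 3 members were called with siRNA B in place of 5, and the share of higher genes among all calls went from 46.6% to 16.1% for siRNA A against control, from 45.8% to 18.8% for siRNA B and from 48.0% to 27.4% between the siRNAs. Values that changed sign were all of results that were not called. With library totals alone they were -0.16 for UPF3A with siRNA B, -0.31 for UPF3B with siRNA A and -0.22 for SMG1 with siRNA A. With the GC correction, with and without the replicate block, they were -0.018 for UPF3A with siRNA B and -0.037 for UPF3B with siRNA A. Without the libraries numbered 2 they were 0.011 for STAU2 with siRNA A and -0.12 for UPF3A with siRNA B; without those libraries STAU1 with siRNA B was 0.29 (limma adjusted p = 0.0588).

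Leaving out 1 library gave 3 to 5 called members with siRNA A, 4 to 5 with siRNA B and 2 to 6 between the siRNAs, with 3 without siRNA A replicate 2 and 2 without siRNA B replicate 3; SMG5 with siRNA A was called without siRNA B replicate 2 (-0.28, limma adjusted p = 0.0499). In these fits UPF2 ranged from -0.18 to 0.034 with siRNA B and from -0.16 to 0.042 between the siRNAs, UPF3A with siRNA B from -0.14 to 0.14, and UPF3B with siRNA A from -0.25 to 0.31. With the replicate block, called members numbered 5 with siRNA A, where SMG5 was gained, 5 with siRNA B and 6 between the siRNAs; with the GC correction and the replicate block, UPF2 with siRNA A was called at -0.23 (limma adjusted p = 0.0321) and UPF1 was not (-0.18, limma adjusted p = 0.113). The block changed no other member's call. The block rests on replicate numbers that were read as pairs for control and siRNA A only. Same-numbered libraries correlated at 0.17, 0.45 and -0.39 between control and siRNA B and at 0.20, 0.44 and 0.02 between the siRNAs. With the block, calls over all genes rose from 7156 to 8088 with siRNA A and from 4715 to 5784 with siRNA B. Between the siRNAs they rose from 5152 to 6239. All groups share a common estimate of the spread in that fit, so these counts cannot show which groups are paired. edgeR and DESeq2 on the recovered reads each called 4, 5 and 6 members, and edgeR called 7154, 4777 and 5099 genes in all, beside 7156, 4715 and 5152 by limma. The cause of these shifts was not tested.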

Other observations

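UPF2 and UPF3B had their lowest level in the library numbered 2 in all 3 groups, and UPF3A, SMG5 and SMG6 in 2 of the 3. SMG1 was not lowest there in any group. Those libraries also had the smallest totals of their groups, at 19313669, 15566530 and 16340856 reads for control, siRNA A and siRNA B. The part of the totals in these levels was not tested.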
